A study of Mus musculus with 22 samples.

Results

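The 31 genes described here make, carry, receive and shape the inhibitory signal of GABA, or mark the interneurons that release it. They were listed by name and function: 9 encode subunits of the GABA-A receptor, 6 serve the synthesis, transport and breakdown of GABA, 4 act at the inhibitory synapse or set neuronal chloride, 9 mark classes of interneurons and 3 are transcription factors of the interneuron lineage. All 31 were measured, among 20239 genes with a symbol and 21225 features on the array. The list is a selection and not the whole pathway.

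Whole-transcriptome arrays were made from the hippocampus and the cerebral cortex of 6 Ts1Cje mice and 5 wild-type (WT) mice. Ts1Cje mice, used to model Down syndrome, have the distal part of chromosome 16 once more on another chromosome, with the rest of chromosome 16 in its normal copy number. The study asked which genes and pathways this segment affects, and which of them are affected in both regions. All animals were females aged 8 to 10 weeks, the WT mice were littermates of the Ts1Cje mice, the line had been backcrossed to C57Bl/6J, and no treatment is named. With 1 array for each region of an animal there were 22 arrays, and the replicates are separate mice. Dissected pieces of tissue were used whole, so in every result that follows fewer cells of a type and less RNA per cell cannot be told apart. None of the 31 genes lies in the extra segment: Abat (chr16:8513429-8621568) and Sst (chr16:23889573-23891342, both by the RefSeq annotation of GRCm38.p6) sit on the proximal, disomic part of chromosome 16.

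GABA is the main inhibitory transmitter of the adult forebrain. It is made from glutamate by a pair of decarboxylases, loaded into vesicles by a single transporter, and opens GABA-A receptors, chloride channels put together from alpha, beta and a gamma or delta subunit, whose makeup sets their kinetics and whether they sit at synapses or outside them. Interneurons fall into classes that are told apart by calcium-binding proteins and neuropeptides, and increased inhibition has been described in mouse models of Down syndrome.

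The values are log2 signals, and their array medians lay between 6.91 and 6.95 in hippocampus, against 7.53 to 7.62 in cortex. The labels were checked against known genes. Over 73 genes of the extra segment, the mean log2 signal ran from 7.67 to 7.73 in Ts1Cje hippocampus and from 7.43 to 7.46 in WT hippocampus, and from 8.23 to 8.31 in Ts1Cje cortex and from 7.98 to 8.01 in WT cortex, with no overlap in either region. All 15 hippocampal neuron markers were higher in hippocampus, and of 13 markers of cortical projection neurons 9 were lower there and 3 higher. The arrays of Ts1Cje animal 64 and WT animal 60 stood apart. Their median correlation with the other arrays of the region was 0.985 and 0.991 in hippocampus and 0.976 and 0.967 in cortex, against 0.995 to 0.996 and 0.996 to 0.997 for the 9 other animals. Their signals also spread less over all features. The SD of animals 64 and 60 was 1.98 and 2.06 in hippocampus, against 2.14 to 2.19 for the 9 others. In cortex it was 1.95 and 1.86, against 2.17 to 2.22. In cortex, animal 64 was the lowest of the Ts1Cje group for 20 of the 31 genes and animal 60 of the WT group for 19. In hippocampus these counts were 18 and 15. The same animals were the highest of their group for 3 and 4 genes in cortex and for 6 and 8 in hippocampus. Results are also given without these 2 animals where that changed a call or a count, and for the genotype comparison as a whole.

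**Figure D1:**
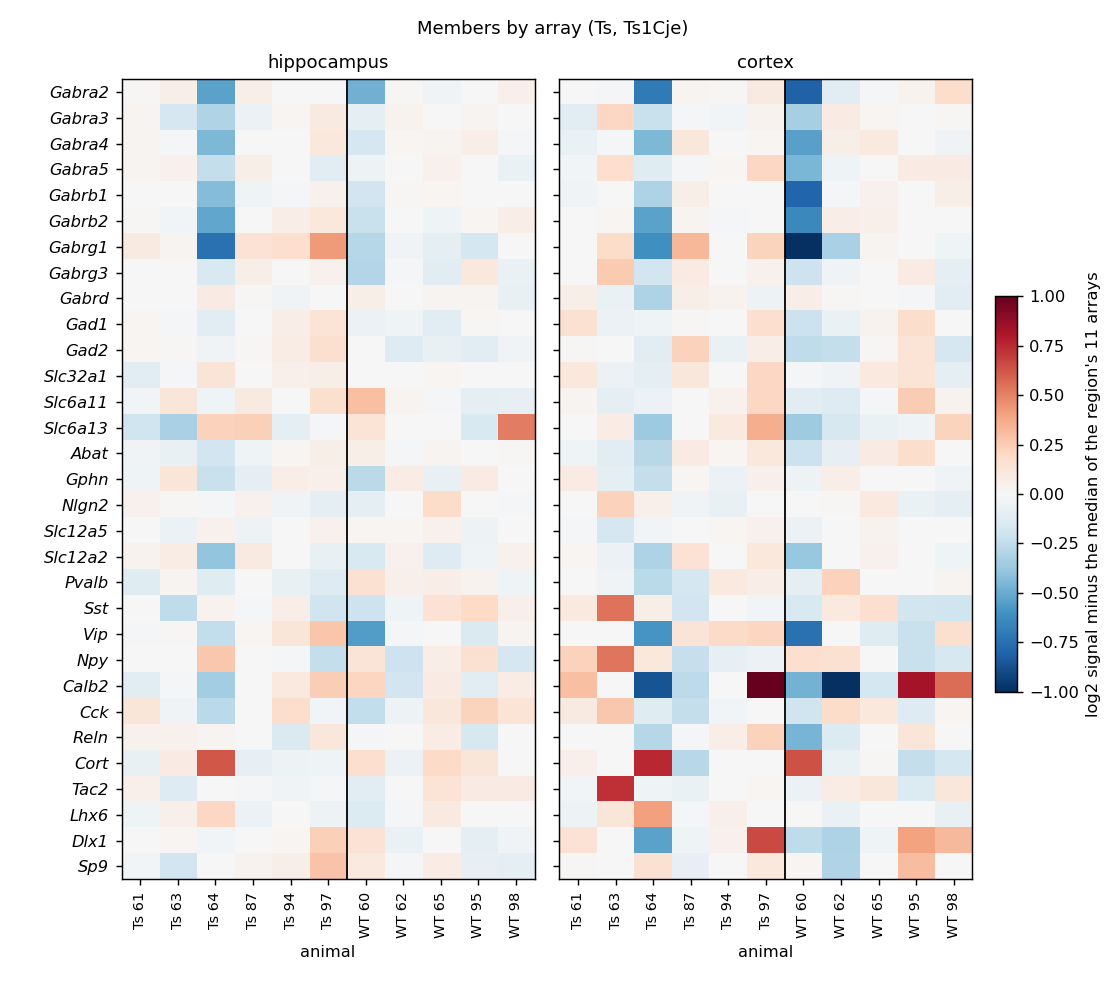
Log2 signal of each of the 31 genes (rows) on each array (columns, animal numbers, Ts1Cje left of WT) minus the median of that gene over the 11 arrays of the region, hippocampus on the left and cortex on the right, with red above and blue below that median. The columns of Ts1Cje animal 64 and WT animal 60 are mostly blue in cortex and paler in hippocampus. Measured instead from the mean of the other arrays of the same region and genotype, the median deviation of the 31 genes was -0.24 for both in cortex. In hippocampus it was -0.11 and -0.04.

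The regions differed far more than the genotypes. After each array was centred on its median, 6 of the 31 genes were higher in hippocampus than in cortex and 14 were lower (limma, adjusted p under 0.05 over all 20239 genes, which is what a call means throughout), and 11 were not called. Among all genes 20.2% were higher, 21.2% lower and 41.4% called in either direction. These shares also stand beside the counts by role given below, each of which rests on few genes. The 11 hippocampus arrays and the 11 cortex arrays did not overlap for 9 members, Gabra5 on the higher side and Gabra3, Gabrg3, Gabrd, Nlgn2, Slc12a5, Pvalb, Npy and Tac2 on the lower, against 9.71% of all genes, 4.83% on the higher and 4.88% on the lower side. The median log2 difference was -0.16 over the members and -0.00399 over all genes. These directions are relative to the median gene of each array: on the values as deposited, where the median of all genes lay 0.63 lower in hippocampus (-0.63), 1 member was higher and 28 were lower, beside 299 genes higher and 18986 lower of all 20239. RNA of each region was extracted with its own kit, so region and kit cannot be told apart. With the animal as a fixed replicate block, which the shared animal numbers allow, 8 members were higher and 17 lower, beside 5338 and 5587 of all 20239 genes. Without animals 60 and 64 they were 7 and 18, beside 6539 and 6714 genes.

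**Figure D2:**
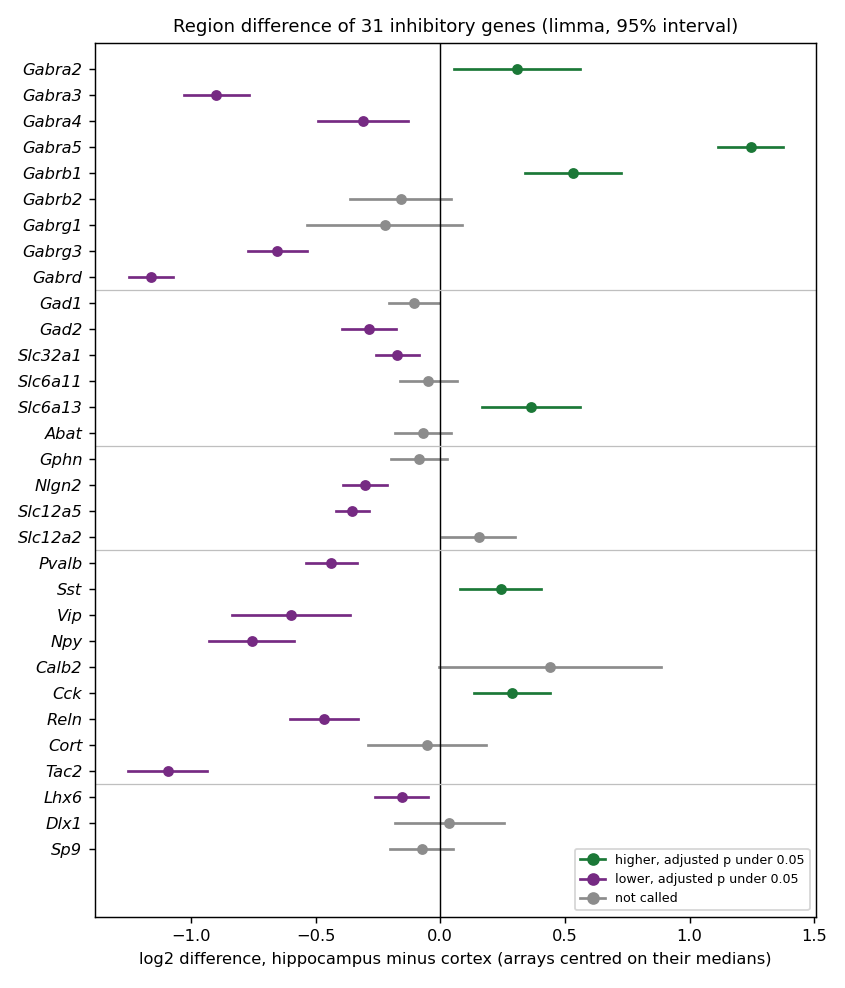
Log2 difference, hippocampus minus cortex, of arrays centred on their medians (horizontal axis), with the 95% interval of limma, for the 31 genes in 5 groups by role. Gabra5 lies farthest to the right at 1.24, and Gabrd (-1.16) and Tac2 (-1.09) farthest to the left.

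The receptor subunits went both ways, with 3 higher in hippocampus, 4 lower and 2 not called. Gabra5 encodes the alpha5 subunit, a mainly extrasynaptic subunit known for its high level in hippocampal pyramidal cells, and was the clearest member on the higher side. Its log2 signal above the array median was 4.55 at the lowest, 4.80 at the median and 4.86 at the highest in hippocampus, against 3.04, 3.55 and 3.71 in cortex. Every hippocampus array lay above every cortex array, and the gene was higher in the hippocampus of all 11 animals, by 1.01 to 1.69. The difference of 1.24 ± 0.0634 (SE) is 2.37-fold (limma adjusted p = 7.78e-13), and it kept its sign on the values as deposited, at 0.61. Gabrb1, the beta1 subunit, ran from 3.51 over a median of 3.96 to 4.02 in hippocampus, against 2.64, 3.48 and 3.55 in cortex. It was higher in all 11 animals, by 0.36 to 1.11, though the groups overlapped through the hippocampus of animal 64. Its difference was 0.53 ± 0.0926 (SE; limma adjusted p = 7.64e-05), and on the values as deposited it turned to -0.10.

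Gabra2, the alpha2 subunit found at synapses on the axon initial segment, was also higher in all 11 animals, by 0.14 to 0.62. Its difference of 0.31 ± 0.121 (SE) passed narrowly (limma adjusted p = 0.046). The call was lost when any 1 of the 9 animals other than 60 and 64 was left out, with an adjusted p of 0.0517 to 0.0899, whereas without both 60 and 64 the difference was 0.26 and the adjusted p 1.03e-06. With the animal as a replicate block the limma adjusted p of Gabra2 was 6.79e-05 (fixed) or 0.00231 (random), and after quantile normalization 0.00232. Within genotypes Gabra2 was called in neither (limma adjusted p = 0.174 in Ts1Cje and 0.230 in WT). On the values as deposited its difference turned to -0.32.

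On the lower side, Gabrd showed the largest difference of the receptor genes. It encodes the delta subunit of extrasynaptic receptors that carry tonic inhibition, best known from dentate granule cells. Its signal above the array median was 0.81, 0.89 and 0.94 (lowest, median and highest) in hippocampus, against 1.76, 2.08 and 2.16 in cortex, and it was lower in the hippocampus of all 11 animals. The difference of -1.16 ± 0.0423 (SE) is 2.23-fold (limma adjusted p = 3.95e-15). The thalamus also carries the delta subunit, and of 8 thalamic markers 3 were higher and 2 lower in hippocampus; their part was not tested.

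Gabra3, the alpha3 subunit, was 2.996, 3.31 and 3.41 above the array median in hippocampus, against 3.84, 4.21 and 4.42 in cortex, with no overlap. It was lower by 0.63 to 1.27 in all 11 animals, a mean difference of -0.90 ± 0.0627 (SE; limma adjusted p = 1.38e-10). Gabrg3, a gamma subunit whose gene lies next to Gabra5 on chromosome 7, went the opposite way from its neighbour. Its values were 2.18, 2.50 and 2.59 in hippocampus and 2.86, 3.11 and 3.37 in cortex, and the difference was -0.65 ± 0.0572 (SE; limma adjusted p = 5.41e-09). Gabra4, which pairs with the delta subunit in the dentate gyrus, was lower in 10 of 11 animals, at -0.31 ± 0.0864 (SE; limma adjusted p = 0.00605), and within genotypes it was called in Ts1Cje (-0.33) and not in WT (-0.29, adjusted p = 0.1002).

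Gabrb2 and Gabrg1 were not called, at -0.16 and -0.22, but both became so once the animal was a fixed replicate block (limma adjusted p = 0.0164 and 0.045), though not with a random one (0.0503 and 0.0815), and without animals 60 and 64 (adjusted p = 3.64e-06 and 0.000437). Both were lower in 10 of 11 animals, and animal 60 was the exception for each, with 0.24 and 0.55. Gabrg1, the gamma1 subunit, is known from glia as well as neurons, and of 10 astrocyte markers 5 were higher and 1 lower in hippocampus; their part in the result was not tested.

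Because neighbouring receptor genes went opposite ways, the sequence around their start sites is shown. Gabrg1, Gabra2, Gabra4 and Gabrb1 form a cluster at chr5:70751047-72149572, in which Gabra4 (minus strand) and Gabrb1 (plus strand) are annotated head to head with 388 shared bases. Their differences between regions were -0.31 and 0.53 on centred values (-0.10 for Gabrb1 on the values as deposited), and their windows lie 288 bases apart. Each window holds 250 bases before and 50 after an annotated transcript start, from RefSeq (GRCm38.p6), and capitals mark the 50 bases from the start site on. The single Gabra5 window of the table lies inside the annotated span of the gene (chr7:57407669-57591016) and not at its outer end, and of the 2 Gabrb1 windows the outer one is shown.
Gabra5, chr7:57510010-57510309, minus strand: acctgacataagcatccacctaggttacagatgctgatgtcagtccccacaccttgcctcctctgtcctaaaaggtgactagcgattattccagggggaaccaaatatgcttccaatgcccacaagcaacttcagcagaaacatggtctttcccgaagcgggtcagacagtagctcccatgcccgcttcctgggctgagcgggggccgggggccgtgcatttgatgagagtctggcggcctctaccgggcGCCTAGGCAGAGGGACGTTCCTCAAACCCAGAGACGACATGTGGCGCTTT
Gabra4, chr5:71658259-71658558, minus strand: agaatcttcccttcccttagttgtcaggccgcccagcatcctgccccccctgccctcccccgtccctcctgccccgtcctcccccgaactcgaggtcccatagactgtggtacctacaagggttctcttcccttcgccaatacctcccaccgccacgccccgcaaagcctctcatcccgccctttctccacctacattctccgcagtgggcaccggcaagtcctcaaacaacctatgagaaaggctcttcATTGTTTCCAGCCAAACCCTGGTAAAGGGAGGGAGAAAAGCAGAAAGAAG
Gabrb1, chr5:71657671-71657970, plus strand: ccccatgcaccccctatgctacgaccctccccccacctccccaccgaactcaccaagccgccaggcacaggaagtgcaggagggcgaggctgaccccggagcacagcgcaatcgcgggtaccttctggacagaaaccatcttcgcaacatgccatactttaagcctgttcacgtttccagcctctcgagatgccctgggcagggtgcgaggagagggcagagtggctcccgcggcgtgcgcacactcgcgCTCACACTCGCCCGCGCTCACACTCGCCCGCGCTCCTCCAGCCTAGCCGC
G and C made up 66.0% of the Gabrb1 window, 58.7% of the Gabra4 window and 56.7% of the Gabra5 window, with 25, 12 and 13 CG pairs.

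The genes of GABA supply differed less. Of 6 members 1 was higher in hippocampus, 2 were lower and 3 were not called. Gad2, which encodes the synaptic decarboxylase GAD65, was lower in all 11 animals, at -0.29 ± 0.0529 (SE; limma adjusted p = 0.000154), with values of 3.16, 3.28 and 3.47 in hippocampus against 3.31, 3.61 and 3.86 in cortex. The ranges overlapped. Slc32a1, the vesicular transporter VGAT, was lower in 10 of 11 animals, at -0.17 ± 0.0413 (SE; adjusted p = 0.00191). Gad1, which encodes GAD67, was lower in 10 of 11 animals and missed the threshold at -0.11 (adjusted p = 0.0825), but passed with the fixed replicate block (0.0382) and without animals 60 and 64 (0.0074). All 12 measured striatal neuron markers were lower in hippocampus as well. Striatal neurons make GABA, and the mean log2 signal of these markers ran from 7.42 to 7.79 over the hippocampus arrays and from 9.43 to 10.1 over the cortex arrays; their part in the lower Gad2 and Slc32a1 was not tested.

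Slc6a13, the transporter GAT2 of the meninges and blood vessels, was the member of this group on the higher side. Its signal above the array median was 0.91, 1.22 and 1.74 in hippocampus and 0.53, 0.93 and 1.23 in cortex, higher in 9 of 11 animals, and the difference was 0.36 ± 0.0938 (SE; limma adjusted p = 0.00344), turning to -0.27 on the values as deposited. Within genotypes it was not called in Ts1Cje (0.26, adjusted p = 0.139) and was called in WT (0.47). All 11 choroid plexus markers (mean log2 signal 8.30 to 9.15 in hippocampus, 6.497 to 8.04 in cortex) and 5 of 11 leptomeningeal markers were higher in hippocampus too; their part was not tested. Slc6a11, the astrocytic transporter GAT3, and Abat, the transaminase that breaks GABA down, were not called, at -0.05 (95% interval -0.16 to 0.07) and -0.07 (-0.18 to 0.04). Without animals 60 and 64 Abat was called, at -0.11 (limma adjusted p = 0.0109).

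At the synapse, 2 of 4 members were lower and 2 were not called. Slc12a5, the neuronal chloride exporter KCC2, had the smallest standard error of the 31 members. Its values were 3.74, 3.81 and 3.85 above the array median in hippocampus and 3.99, 4.17 and 4.20 in cortex, with no overlap and with all 11 animals lower in hippocampus, a difference of -0.35 ± 0.032 (SE; limma adjusted p = 9.64e-09). Nlgn2, the adhesion molecule neuroligin 2 of inhibitory synapses, was likewise lower in all 11 animals and without overlap, at -0.30 ± 0.0419 (SE; adjusted p = 4.65e-06). Slc12a2, the chloride importer NKCC1, was higher in 10 of 11 animals by a mean of 0.15 (adjusted p = 0.0871), passed with the fixed replicate block (0.00787) and without animals 60 and 64 (0.00264), and turned to -0.48 on the values as deposited. NKCC1 is abundant in choroid plexus, whose 11 markers were all higher in hippocampus; their part in the result was not tested. Gphn, the receptor scaffold gephyrin, was not called, at -0.09 (95% interval -0.20 to 0.03).

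**Figure D3:**
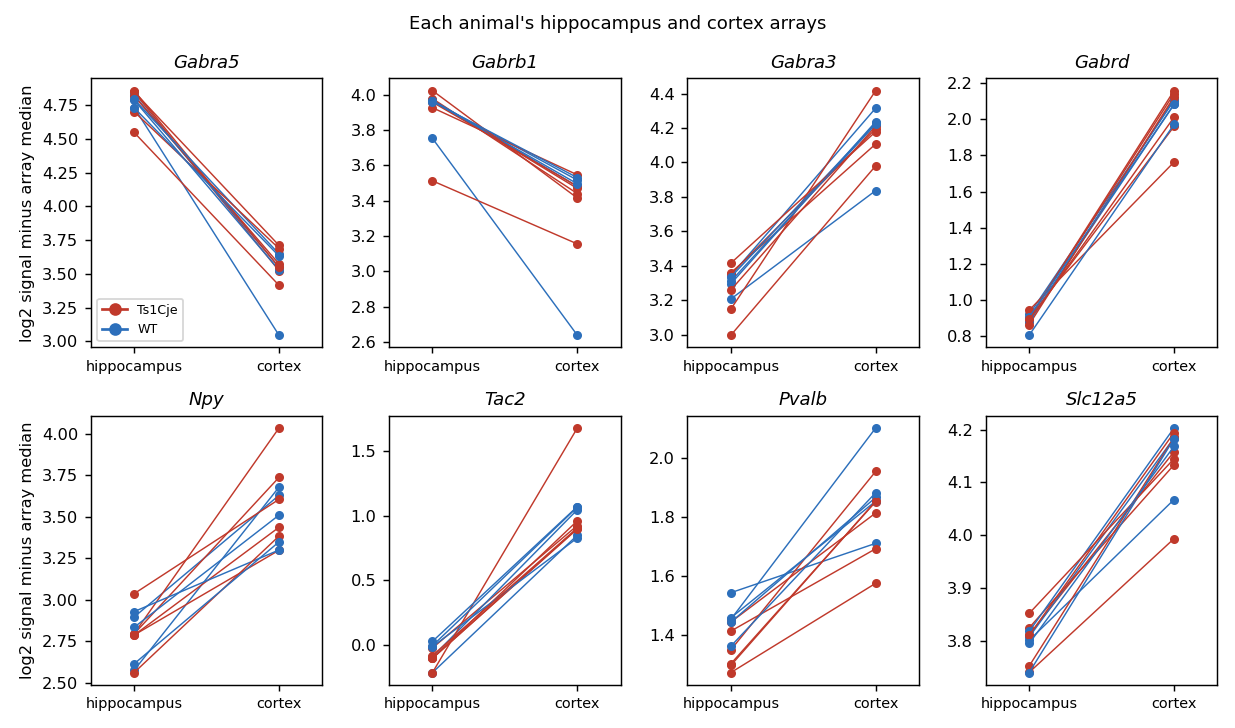
Log2 signal minus the array median in the hippocampus (left of each panel) and cortex (right) of each of the 11 animals, joined by a line, for 8 members, with Ts1Cje in red and WT in blue. The 11 lines run the same way in each panel, downward to cortex for Gabra5 and Gabrb1 and upward for the 6 others, and vertical scales differ between panels.

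Of the 9 interneuron class markers 2 were higher in hippocampus, 5 were lower and 2 were not called. Tac2, which encodes neurokinin B, was -0.22, -0.10 and 0.02 relative to the array median in hippocampus, against 0.83, 0.92 and 1.68 in cortex. No array overlapped, and the difference of -1.09 ± 0.0767 (SE; limma adjusted p = 1.53e-10) is 2.13-fold. Npy, the neuropeptide Y gene, was 2.56, 2.79 and 3.04 in hippocampus, against 3.30, 3.51 and 4.03 in cortex. It did not overlap either and was lower in all 11 animals, at -0.76 ± 0.0822 (SE; adjusted p = 1.51e-07).

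Pvalb, the calcium-binding protein of fast-spiking basket cells, was 1.27, 1.41 and 1.54 in hippocampus and 1.58, 1.85 and 2.10 in cortex, without overlap, and the difference was -0.44 ± 0.0493 (SE; limma adjusted p = 2.5e-07). Vip, the peptide of interneurons that inhibit other interneurons, was lower in all 11 animals, at -0.60 ± 0.113 (SE; adjusted p = 0.000192). Reln, the secreted protein of neurogliaform and Cajal-Retzius cells, was lower in all 11 animals too, at -0.47 ± 0.0657 (SE; adjusted p = 5.67e-06). Of the 6 Cajal-Retzius markers, Reln among them, 2 were higher and 2 lower in hippocampus.

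Sst and Cck were the markers on the higher side. Sst encodes somatostatin of dendrite-targeting interneurons and was 3.97, 4.23 and 4.41 above the array median in hippocampus and 3.75, 3.96 and 4.49 in cortex. It was higher in 10 of 11 animals, all but Ts1Cje animal 63, whose cortex held the highest value, and the difference of 0.24 ± 0.0783 (SE; limma adjusted p = 0.0162) turned to -0.39 on the values as deposited. The call was lost without animal 95 (adjusted p = 0.063) or without animal 98 (0.0509). Within genotypes Sst was called in WT, at 0.34, and not in Ts1Cje, at 0.14, and the genotype effect on the region difference was not called either (-0.22, 95% interval -0.55 to 0.10). Cck, cholecystokinin of a class of basket cells and also of pyramidal cells, was higher in 10 of 11 animals, at 0.29 ± 0.0738 (SE; adjusted p = 0.00338), and turned to -0.34 on the values as deposited. Within genotypes Cck was called in Ts1Cje (0.28) and not in WT (0.30, limma adjusted p = 0.0514). Cort, cortistatin, was not called, at -0.05 (95% interval -0.29 to 0.19). Calb2, calretinin, was not called at 0.44 (adjusted p = 0.106) and was called with the fixed replicate block (0.0437) and without animal 95 (0.0398), but not without animals 60 and 64 (0.31, adjusted p = 0.231), and its deposited values gave -0.19.

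Of the transcription factors, Lhx6, which specifies interneurons from the medial ganglionic eminence, was lower in all 11 animals. Its difference was -0.16 ± 0.0505 (SE, limma adjusted p = 0.0172). Lhx6 missed the threshold after quantile normalization (limma adjusted p = 0.102) and within WT (0.251). With the animal as a replicate block its adjusted p was 0.00184 (fixed) or 0.000975 (random). Dlx1 and Sp9, which act across the interneuron lineage and in striatal neurons, were not called. Dlx1 stood at 0.04 (95% interval -0.18 to 0.26; -0.59 on the values as deposited) and Sp9 at -0.07 (-0.20 to 0.05).

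Somatostatin is the textbook gene with a cyclic AMP response element (CRE) before its start, so the windows of 4 peptide genes with at least its 5-base core are shown. Capitals mark the core TGACG or its other strand CGTCA, and the windows come from RefSeq (GRCm38.p6), 1 for each of these genes. That of Sst also lies inside the annotated span of the gene.
Sst, chr16:23890795-23891094, minus strand: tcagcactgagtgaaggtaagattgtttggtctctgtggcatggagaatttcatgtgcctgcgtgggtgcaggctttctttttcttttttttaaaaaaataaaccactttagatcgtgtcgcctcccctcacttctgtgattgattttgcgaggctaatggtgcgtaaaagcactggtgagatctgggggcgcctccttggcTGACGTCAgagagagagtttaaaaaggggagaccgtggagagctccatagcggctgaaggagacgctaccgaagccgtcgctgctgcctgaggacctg
Vip, chr10:5638968-5639267, plus strand: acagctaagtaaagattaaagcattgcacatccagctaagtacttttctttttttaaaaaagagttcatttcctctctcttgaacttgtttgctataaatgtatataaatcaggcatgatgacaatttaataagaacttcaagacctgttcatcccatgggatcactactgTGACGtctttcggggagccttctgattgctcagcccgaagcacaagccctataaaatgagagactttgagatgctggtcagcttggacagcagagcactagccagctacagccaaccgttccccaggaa
Cck, chr9:121495645-121495944, minus strand: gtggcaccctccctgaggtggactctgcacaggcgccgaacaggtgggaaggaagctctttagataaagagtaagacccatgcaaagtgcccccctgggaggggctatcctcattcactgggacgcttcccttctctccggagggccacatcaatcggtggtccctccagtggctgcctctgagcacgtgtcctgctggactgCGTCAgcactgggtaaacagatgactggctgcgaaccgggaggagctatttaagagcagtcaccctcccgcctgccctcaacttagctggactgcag
Cort, chr4:149126714-149127013, minus strand: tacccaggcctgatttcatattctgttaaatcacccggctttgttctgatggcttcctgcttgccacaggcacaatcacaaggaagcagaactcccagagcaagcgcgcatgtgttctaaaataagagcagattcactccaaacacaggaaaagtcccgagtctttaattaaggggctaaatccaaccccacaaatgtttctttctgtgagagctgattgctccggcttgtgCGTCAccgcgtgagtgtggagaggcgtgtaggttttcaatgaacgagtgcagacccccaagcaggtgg
The full element TGACGTCA, which reads the same on both strands, was found in 1 of 37 windows of the 27 members that matched, in Sst at 48 bases before the start, and in 1.79% of all 32851 windows. It holds a core on each strand. The core alone, on either strand, was in 7 of the 37 windows (Cck, Cort, Gabrb2, Gad2, Nlgn2, Sst and Vip) and in 20.81% of all windows. The 4 genes printed did not move together: Sst and Cck were higher in hippocampus on centred values (both lower on the values as deposited), Vip was lower and Cort was not called.

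Between genotypes no member was called in either region. In hippocampus 0 of 31 passed limma's adjusted p under 0.05, where 0.114% of all genes did, 23 in number. An unadjusted p under 0.05 was reached by 2 members, Gad2 and Pvalb, against 3.71% of all genes. That count was 0 without any 1 of animals 61, 62, 65, 94, 95 or 97 and with all arrays in 4 groups. It was 3 without animal 64, beside 1461 of all 20239 genes, and 5 with array weights, beside 1971. Without animals 60 and 64 it was 3 as well, beside 1694 genes. Those 3 were Gabrg1, Gad2 and Tac2, the last at -0.10 (95% interval -0.20 to -0.00292). In cortex 0 of 31 passed, where 0.00494% of all genes did, that is 1 gene. There 0 reached an unadjusted p under 0.05, against 1.3% of all genes, 263 in number, where about 1012 would be expected by chance. That cortex count was 1 with array weights, beside 1469 genes, and 1 without animals 60 and 64, beside 1208. Of the 73 genes of the extra segment, 17 were called higher in hippocampus (median log2 difference 0.29) and 0 in cortex (median 0.33). With any 1 animal left out, 1 to 35 genes were called in hippocampus and 1 to 7 in cortex, and no member. For no member did the 6 Ts1Cje and the 5 WT animals fall apart without overlap, which 0.637% of all genes did in hippocampus and 0.306% in cortex. Differences, Ts1Cje minus WT, were above 0 for 16 of 31 members in hippocampus, against 46.3% of all genes. In cortex they were above 0 for 25, against 48.5% of all genes, and for 17 without WT animal 60. The median log2 difference of the members was 0.00159 in hippocampus (-0.00637 over all genes) and 0.05 in cortex (-0.00337 over all genes). The cortex median was 0.00451 without WT animal 60, 0.0260 without Ts1Cje animal 97, 0.0344 without Ts1Cje animal 63, 0.0803 without WT animal 95 and 0.0927 without Ts1Cje animal 64.

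A missed threshold does not show that the genotypes were alike, so the intervals are given. In hippocampus the 95% interval of every member lay within a 1.5-fold change in either direction, and that of 25 of 31 within 1.2-fold. In cortex 29 members lay within 1.5-fold, all but Gabrg1 and Calb2, and 11 within 1.2-fold. Without animals 60 and 64, 31 in hippocampus and 30 in cortex lay within 1.5-fold, all but Calb2 in cortex, and 26 and 22 within 1.2-fold. No member was called then either.

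**Figure D4:**
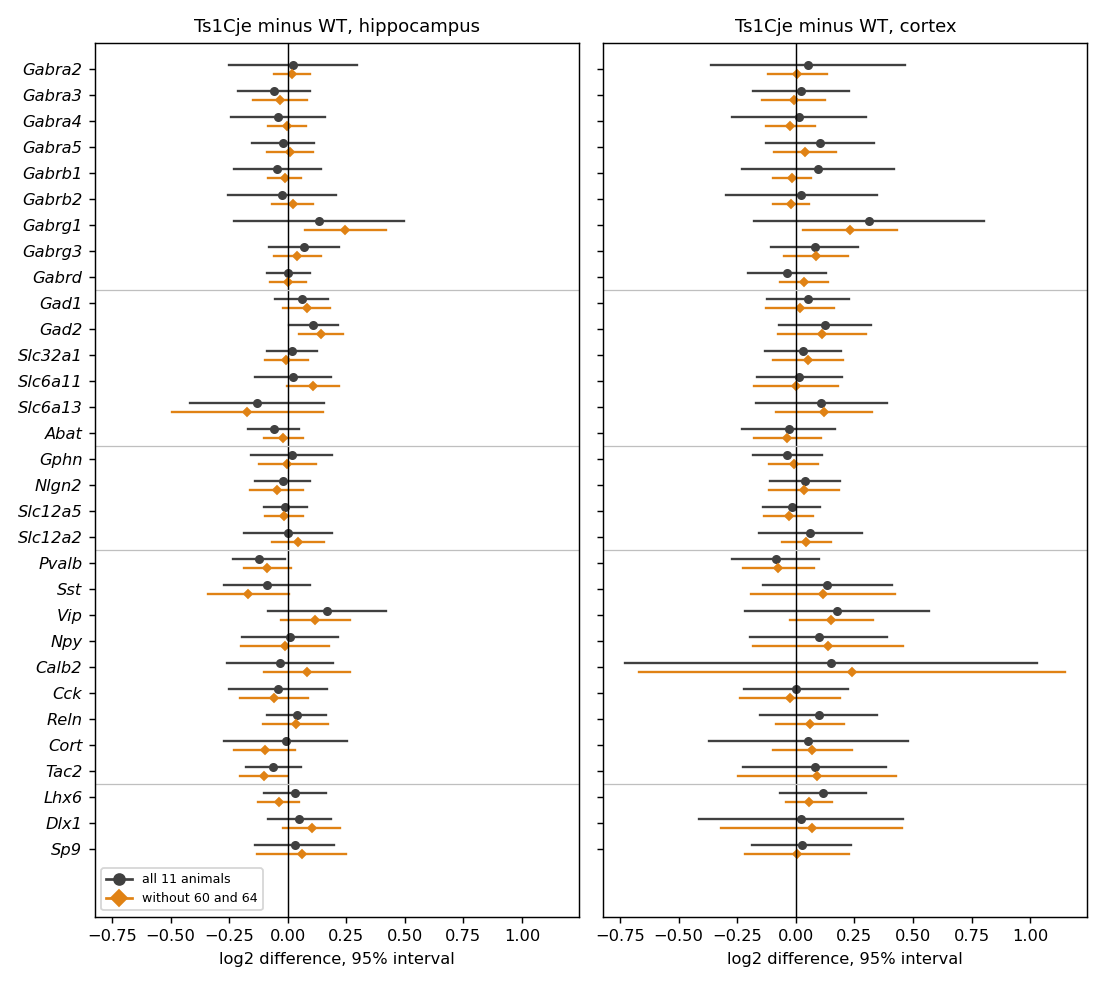
Log2 difference, Ts1Cje minus WT, with the 95% interval of limma for the 31 genes in hippocampus (left panel) and cortex (right panel), for all 11 animals (dark circles) and without animals 60 and 64 (orange diamonds). The intervals of all 11 animals cross 0 except those of Gad2 and Pvalb in hippocampus, and Calb2 in cortex has the widest, from -0.73 to 1.03.

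Among receptor subunits, Gabrg1 had the largest difference. In hippocampus its log2 signal was 7.47 at the lowest, 8.34 at the median and 8.64 at the highest in Ts1Cje, against 7.94, 8.19, 8.13, 8.05 and 8.22 in WT animals 60, 62, 65, 95 and 98. The groups overlapped through Ts1Cje animal 64. In cortex it was 8.54, 9.25 and 9.49 in Ts1Cje, against 8.04, 8.84, 9.19, 9.16 and 9.12 in the same WT animals, and here the groups overlapped further. The difference was 0.13 ± 0.166 (SE) in hippocampus and 0.31 ± 0.224 in cortex, and without animals 60 and 64 it was 0.25 ± 0.0767 (95% interval 0.07 to 0.42; limma adjusted p = 0.511) and 0.23 ± 0.0903 (0.03 to 0.43; adjusted p = 0.816). Neither passed over all genes.

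The 8 other receptor genes differed by -0.06 to 0.07 in hippocampus and by -0.04 to 0.10 in cortex, and none was called. Gabra5 was 11.49, 11.74 and 11.78 in Ts1Cje hippocampus, against 11.68, 11.72, 11.77, 11.73 and 11.66 in WT hippocampus, a difference of -0.02 (95% interval -0.15 to 0.11). In cortex it was 10.98, 11.10 and 11.31 in Ts1Cje, against 10.64, 11.06, 11.10, 11.19 and 11.19 in WT, a difference of 0.10 (-0.13 to 0.34). The groups overlapped in both regions. Its region difference was 1.19 in Ts1Cje and 1.29 in WT.

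Gad2 was the supply gene nearest to a difference. Its log2 signal in hippocampus was 10.19, 10.24 and 10.38 in Ts1Cje (lowest, median and highest), against 10.22, 10.09, 10.14, 10.12 and 10.19 in WT animals 60, 62, 65, 95 and 98. The groups overlapped through Ts1Cje animal 64. The difference of 0.11 ± 0.0483 (SE) had an unadjusted p of 0.0437 and was not called (limma adjusted p = 1.00; 0.14 and adjusted p = 0.48 without animals 60 and 64). In cortex Gad2 was 11.05, 11.17 and 11.39 in Ts1Cje, against 10.91, 10.93, 11.17, 11.30 and 10.99 in WT, at 0.12 ± 0.0901 (SE). Gad1 differed by 0.06 ± 0.0512 (SE) in hippocampus and by 0.05 ± 0.0793 in cortex, and Slc32a1 by 0.02 and 0.03. The 3 other supply genes were not called, and Slc6a13 had opposite signs, at -0.13 ± 0.131 (SE) in hippocampus and 0.11 ± 0.128 in cortex. The difference between those 2 effects was not called (-0.24, 95% interval -0.63 to 0.16). The genotype difference of choroid plexus markers was above 0 for 2 of 11 in hippocampus and 3 of 11 in cortex. The 2 in hippocampus were Clic6 (0.21) and Kcne2 (0.23), which lie in the extra segment, and all the rest were below 0 there. In cortex Clic6 was again above 0 (0.41) and Kcne2 was not (-0.08). For leptomeningeal markers the genotype difference was above 0 for 2 of 11 in hippocampus (median -0.11) and 10 of 11 in cortex (median 0.06). The difference between the effects in the 2 regions was above 0 for 0 of these 11 (median -0.18). None of these markers was called, and their part in the Slc6a13 values was not tested.

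The genes of the synapse and of chloride differed little between genotypes. Slc12a5 differed by -0.00964 ± 0.0413 (SE) in hippocampus and by -0.02 ± 0.0561 in cortex, and Slc12a2 by 0.00159 ± 0.0856 and 0.06 ± 0.0999. Slc12a5 was 10.66, 10.72 and 10.77 in Ts1Cje hippocampus, against 10.75, 10.74, 10.76, 10.67 and 10.72 in WT, so the 2 groups covered nearly the same range. Nlgn2 and Gphn lay between -0.04 and 0.04 in both regions.

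Pvalb was the interneuron marker with an unadjusted p under 0.05, on the lower side. Its log2 signal in hippocampus was 8.21, 8.24 and 8.37 in Ts1Cje, against 8.49, 8.39, 8.40, 8.38 and 8.29 in WT animals 60, 62, 65, 95 and 98. The groups overlapped through Ts1Cje animals 63 and 87 and WT animal 98. The difference of -0.12 ± 0.0511 (SE) had an unadjusted p of 0.0351 and was not called (limma adjusted p = 1.00), and without animals 60 and 64 it was -0.09 (95% interval -0.19 to 0.02). In cortex Pvalb was 9.14, 9.39 and 9.502 in Ts1Cje, against 9.31, 9.64, 9.41, 9.41 and 9.44 in WT, at -0.08 ± 0.0848 (SE).

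Of all 9 class markers, Pvalb among them, the difference was above 0 for 3 in hippocampus (median -0.03) and for 7 in cortex (median 0.10). Vip differed by 0.17 ± 0.115 (SE) in hippocampus and by 0.18 ± 0.178 in cortex, and neither was called. With 1 animal left out, Vip lay between 0.06 and 0.22 in hippocampus and between 0.04 and 0.29 in cortex. Sst had opposite signs, at -0.09 ± 0.0846 (SE) in hippocampus and 0.13 ± 0.125 in cortex. Npy, Cck, Reln, Cort and Tac2 lay between -0.06 and 0.04 in hippocampus and between -0.000742 and 0.10 in cortex. Tac2 in cortex held 1 array far from the rest, Ts1Cje animal 63 at 9.24, where the 5 other Ts1Cje animals stood at 8.44 to 8.52 and the WT animals at 8.45, 8.58, 8.62, 8.37 and 8.62. The same array held the highest Sst (12.04), Npy (11.59) and Cck (12.11) of the cortex. Lhx6, Dlx1 and Sp9 lay between 0.03 and 0.05 in hippocampus and between 0.02 and 0.12 in cortex.

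When the genotype effects of both regions were compared, 0 of 31 members were called and 0 reached an unadjusted p under 0.05. Over all genes, 0% were called and 1.28% reached an unadjusted p under 0.05. Of the further lists described next, 0 genes were called either, and the lowest p belonged to Igsf9b (0.16 ± 0.0930, SE) and Crhbp (-0.17 ± 0.112). Members' estimates ran from -0.24 (Slc6a13) to 0.05 (Gphn), and the 95% intervals of 28 members lay within 1.5-fold, all but Gabrg1, Slc6a13 and Calb2.

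Calb2 and Dlx1 varied widely between the cortex arrays of both genotypes. Calb2 was 7.76, 8.63 and 9.77 in Ts1Cje cortex (lowest, median and highest), against 8.16, 7.39, 8.45, 9.46 and 9.19 in WT animals 60, 62, 65, 95 and 98. Its SD was 0.20 in Ts1Cje and 0.16 in WT hippocampus, against 0.66 and 0.83 in cortex. Ts1Cje animal 97 and WT animals 95 and 98 held the 3 highest values, so both genotypes were found at the top. Dlx1 followed, with its 3 highest cortex values, 9.496, 9.24 and 9.16, in the same 3 animals. Sp9 followed only in part. It was 8.33 in WT animal 95, 8.12 in Ts1Cje animal 97 and 8.02 in WT animal 98. In Ts1Cje animal 64, where Dlx1 was lowest (8.30), Sp9 stood at 8.17.

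Calretinin and Dlx1 are abundant in the olfactory bulb, which borders the frontal cortex. A list of 10 olfactory bulb genes was therefore added after these values were seen. Its mean log2 signal in cortex was 8.74 in Ts1Cje animal 97 and 8.68 and 8.39 in WT animals 95 and 98, the 3 highest of the 11 arrays, and lowest in WT animal 62, at 7.47, where Calb2 was lowest too. Cdhr1, a cadherin of the bulb's projection neurons, ran in those 4 arrays at 8.87, 8.88, 8.33 and 6.20. It is also among the thalamic markers. Not every gene of the list ranked the arrays in this way. Doc2g was 8.39 in WT animal 60 and 8.32 in Ts1Cje animal 61, against 8.23 in WT animal 98. In hippocampus the mean of the list lay between 6.57 and 6.74 on all 11 arrays. The part of olfactory bulb tissue in the Calb2 and Dlx1 values was not tested.

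**Figure D5:**
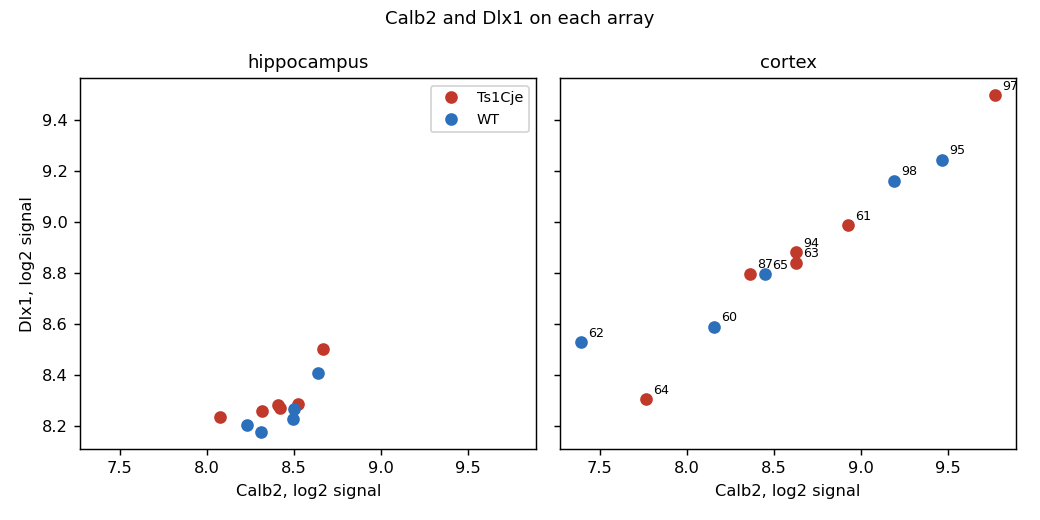
Log2 signal of Dlx1 (vertical axis) against Calb2 (horizontal axis) on each array, hippocampus on the left and cortex on the right, Ts1Cje in red and WT in blue, with animal numbers in cortex. In cortex the arrays spread along a diagonal from animals 62 and 64 to animal 97, with both genotypes along its length, while the hippocampus arrays lie together.

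Further genes of the same pathways were examined in addition to the 31. Of 39 measured partners of GABA receptors and inhibitory synapse genes, 13 were higher in hippocampus, 9 lower and 17 not called. The 3 with the largest differences were Glra3 (a glycine receptor subunit) at -1.24, Mdga1 (which binds neuroligin 2) at 0.98 and Igsf9b (an adhesion molecule of inhibitory synapses) at -0.85. Of 45 other interneuron genes 16 were higher, 21 lower and 8 not called, led by Penk (-2.68), Tac1 (-2.07) and Lamp5 (-1.97). For both lists the shares over all genes were 20.2% higher, 21.2% lower and 41.4% in either direction. Penk and Tac1, peptide genes of striatal neurons, also stand among the striatal markers, and Lamp5, of neurogliaform interneurons, among the cortical ones.

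Between genotypes 0 of these 39 and 0 of these 45 were called in either region, and an unadjusted p under 0.05 was reached by 2 and 2 in hippocampus, where 3.71% of all genes reached it, and by 0 and 0 in cortex, where 1.3% did. The lowest p among the receptor partners was that of Mdga1 in hippocampus (-0.15 ± 0.0526, SE; limma adjusted p = 1.00) and of Igsf9b in cortex (-0.11 ± 0.0649; adjusted p = 1.00). Among the interneuron genes it was that of Htr3a, a serotonin receptor subunit of interneurons from the caudal ganglionic eminence, in both regions, at 0.22 ± 0.0598 (SE; adjusted p = 0.725) in hippocampus and 0.24 ± 0.121 (adjusted p = 1.00) in cortex.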

How the data were processed

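Total RNA of 22 tissue samples, 11 hippocampus and 11 cortex, was hybridised to Affymetrix mouse gene 1.0 ST arrays. The deposited values are log2 signals from RMA, per the submitters' processing notes; its version, the probe definition and the genome build were not given in the sources used here. RMA corrects background, normalizes arrays to one another and summarises probes, and the array medians still differed by region, so region and normalization could shift together. Of 21225 features, 20239 had 1 gene symbol in the platform annotation and entered the tests. Coordinates and promoter windows are those of RefSeq for GRCm38.p6, and 27 of 31 members matched a window.

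Genotypes were compared within each region on the values as deposited, and regions on values minus each array's median, with the linear model and moderated test of limma 3.58.1 in R 4.3.3 and Benjamini-Hochberg adjustment over all 20239 genes at 0.05. The genotype effect was also compared between regions. All 31 members were named whatever their values, and of each further list the 3 genes with the largest region difference and the lowest p between genotypes. The members and lists were chosen with earlier results of these data known, and the olfactory bulb list after the values were seen. The number of arrays limits the precision. The fitting steps were tested on simulated data.

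The animal numbers of the labels pair a hippocampus with a cortex array. Deviations from the group means correlated by 0.0523 to 0.761 within an animal (median 0.265), and in 7 of 11 animals an array matched its own partner best. For 1 WT animal the title and description give different numbers, and the title was used. Alternatives were centring or not, quantile normalization, array weights, a trended robust prior, leaving out the 6746 dimmest genes, another threshold, the replicate block and leaving out animals.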

Additional observations from a re-analysis of the deposited data

Results flagged for a closer look

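Single arrays stood far from the rest of their group for the members that follow, with a gap to the nearest other array beyond Dixon's 95% critical value. Of 124 groups of arrays 30 held such an array, where chance gives about 1 in 20, or 6.2. Animals 64 and 60, the pair whose arrays also correlated least with the others, held 26 of the 30. The signals of their arrays had the smallest SD of each region over all features, and the part of that in the values below was not tested. All values are log2 signals, and the range of the other animals of the same group follows each.

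In Ts1Cje hippocampus, animal 64 was the lowest for Gabra2 at 9.337 (others 9.869 to 9.935), Gabra4 at 10.05 (10.49 to 10.6), Gabrb1 at 10.46 (10.85 to 10.94), Gabrb2 at 10.47 (10.97 to 11.09) and Gabrg1 at 7.474 (8.247 to 8.644). It was also the lowest for Gabrg3 at 9.269 (9.419 to 9.476) and Slc12a2 at 8.961 (9.279 to 9.446), and the highest for Cort at 7.534 (6.828 to 6.992). In WT hippocampus, animal 60 was the lowest for Gabra2 at 9.393 (9.839 to 9.928) and Gabrb1 at 10.7 (10.89 to 10.91).

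In Ts1Cje cortex, animal 64 was the lowest for Gabra2 at 9.535 (10.23 to 10.33), Gabra4 at 11.03 (11.41 to 11.59), Gabrb1 at 10.72 (10.99 to 11.08), Gabrb2 at 11.29 (11.81 to 11.85) and Gabrg1 at 8.543 (9.16 to 9.492). It was the lowest too for Gabrd at 9.328 (9.57 to 9.695) and Vip at 8.053 (8.645 to 8.86), and the highest for Cort at 8.37 (7.334 to 7.663) and Lhx6 at 8.84 (8.378 to 8.549). In WT cortex, animal 60 was the lowest for Gabra3 at 11.44 (11.77 to 11.85), Gabra4 at 10.94 (11.45 to 11.58), Gabra5 at 10.64 (11.06 to 11.19), Gabrb1 at 10.24 (11.01 to 11.08), Gabrb2 at 11.18 (11.82 to 11.9) and Slc12a2 at 9.45 (9.789 to 9.868). It was the highest for Cort at 8.25 (7.377 to 7.622).

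The 4 others were on animals whose arrays did not stand apart in their correlation with the other arrays. Animal 97 was still the highest of the Ts1Cje group for 14 of the 31 members in hippocampus and 12 in cortex. In Ts1Cje hippocampus animal 97 was the highest for Dlx1 at 8.5 (8.234 to 8.284), and in WT hippocampus animal 65 for Slc32a1 at 7.691 (7.666 to 7.672). In Ts1Cje cortex animal 63 was the highest for Tac2 at 9.239 (8.439 to 8.525) and the lowest for Slc12a5 at 11.55 (11.7 to 11.76).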

How the results depend on the processing

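Between genotypes, no member was called in either region under any alternative run. The counts over all genes moved more. In hippocampus they were 23 as reported, 54 with array weights, 37 without animals 60 and 64, and 1 to 35 with 1 animal left out (35 without animal 64, and 8 or fewer without any other). In cortex, where 1 gene was called, 3 were at an adjusted p under 0.1, with a trended robust prior or without the dimmest genes, 13 after quantile normalization, 50 with array weights, 32 without animals 60 and 64, and 1 to 7 with 1 animal left out (7 without animal 64, 2 without animal 60). Fitting all arrays in 4 groups gave 23, with the random replicate block and with no block alike. Between regions, values as deposited gave 1 member higher, 28 lower and 19285 genes called, and reversed Gabra2 (-0.32), Gabrb1 (-0.10), Slc6a13 (-0.27), Slc12a2 (-0.48), Sst (-0.39), Cck (-0.34) and Dlx1 (-0.59), and also Calb2 (-0.19); the median of all genes moved by -0.63 with that choice. With the animal as a replicate block 8 members were higher and 17 lower (fixed) or 8 and 15 (random), and the block changed no genotype call of a member. Ts1Cje animals alone gave 3 members higher and 14 lower of 5950 genes called, WT animals alone 4 and 12 of 5133, and all animals but 60 and 64 gave 7 and 18 of 13253. With 1 animal left out, 4 to 7 members were higher and 14 to 16 lower, out of 7378 to 9723 genes called. Where no cause is named, the cause was not tested. Signal over background was not analysed here, so dim members such as Tac2 in hippocampus have no detection limit.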
